A study of Mus musculus with 20 samples.

Results

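Gene expression in mouse CD8+ T cells cultured for 24 h with 100 nM of 21h10, a computationally designed mimic of interleukin-21, was compared with that of cells given 100 nM of native murine IL-21 (mIL-21). The comparison rests on 4 RNA-sequencing libraries of the 20 in the series, chosen by their titles, in which the mimic is called h10 and the native cytokine WT. They belong to the second of 2 experiments, whose 10 libraries also held duplicates at 10 nM of either cytokine and duplicates of unstimulated cells. All groups shared the same starting cells: CD8+ T cells from spleens of wild-type C57BL/6J mice aged 6 to 8 weeks, activated for 48 h with plate-bound anti-CD3 (2 µg/mL) and soluble anti-CD28 (1 µg/mL), rested overnight and then cultured with or without cytokine. The labels do not say whether duplicates came from separate mice or cultures, so p-values measure the spread between these libraries, which may be technical.

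IL-21 is a helical cytokine made mainly by activated CD4+ T cells. It joins the IL-21 receptor to the common gamma chain, which brings the kinases JAK1 and JAK3 together and leads to phosphorylation of STAT proteins, above all STAT3. In CD8+ T cells it is known to raise cytotoxic granule genes and the feedback inhibitor Socs3, and it acts on the balance between effector and memory fates. 21h10 was built to hold the same receptor pair in a more stable scaffold.

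The libraries at 100 nM held 30566503 and 27074399 reads on genes with 21h10, and 35197925 and 31289200 with mIL-21. The experiment as a whole ranged from 27074399 to 43303144 reads. Levels are given as CPM, a gene's reads scaled to library size with TMM factors, in the order of duplicates 1 and 2. Between 66.2% and 69.8% of mapped reads fell on genes in the 21h10 libraries at 100 nM and between 70.6% and 73.9% in the mIL-21 libraries, and the part of this gap in the results was not tested. Markers of CD8 T cells summed to between 3070 and 3080 CPM with 21h10 and between 3230 and 3280 CPM with mIL-21. The other cell types were near absent: Cd4 lay between 0.968 and 1.36 CPM, the B cell list summed to at most 7.26 CPM, the granulocyte markers had no read and Ncr1, a defining NK cell gene, was at most 0.0968 CPM. The macrophage, dendritic cell and NK cell lists differed between the groups through Itgam, Itgax and Eomes, which activated T cells also express, while Lyz2 had no read in the 4 libraries. Of the 161 genes named by rule, 15 share exons with another gene on the same strand, 48 on the opposite strand, and 29 have a near-identical stretch elsewhere, so some of their reads may belong to the other gene. In bulk RNA, fewer cells of a type and less RNA per cell cannot be told apart.

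Of 13772 genes tested, 1174 (8.52%) differed between the cytokines at 100 nM. With 21h10, 552 (4.01%) were higher and 622 (4.52%) were lower (edgeR quasi-likelihood test, Benjamini-Hochberg adjusted p under 0.05). For every one of the 1174 genes both 21h10 libraries lay on the same side of both mIL-21 libraries. That is no separate evidence, because the genes were selected on these libraries. Large differences were more often higher than lower with 21h10: 188 of the genes that rose and 55 of those that fell differed by at least 1 on the log2 scale. The median log2 fold change was 0.69 among genes that rose and -0.49 among those that fell, beside -0.002 over all genes tested. The risers held more genes of low level, since 75 of 552 had a mean under 1 RPKM in the higher group, compared with 30 of 622 that fell. Median transcript length was 2658 bases among the genes that rose, 3460.5 among those that fell and 2802 over all tested genes.

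The direction of these calls leaned on the scaling. TMM scaling gave 47.0% of calls as higher, whereas library sizes taken from all mapped reads gave 30.2% (403 higher and 933 lower), with the median of all genes shifted to -0.08 on the log2 scale. Of the 1174 calls, 1023 were also made in the same direction under that scaling. The number of calls also rested on each library: it was 373 without duplicate 1 and 637 without duplicate 2 of mIL-21, and 602 without duplicate 1 and 392 without duplicate 2 of 21h10. In all, 276 genes (116 higher, 160 lower) were called whichever of the 4 libraries was left out. Of the 161 named genes, all called, 63 were among these and 98 lost their call without at least 1 library.

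**Figure D1:**
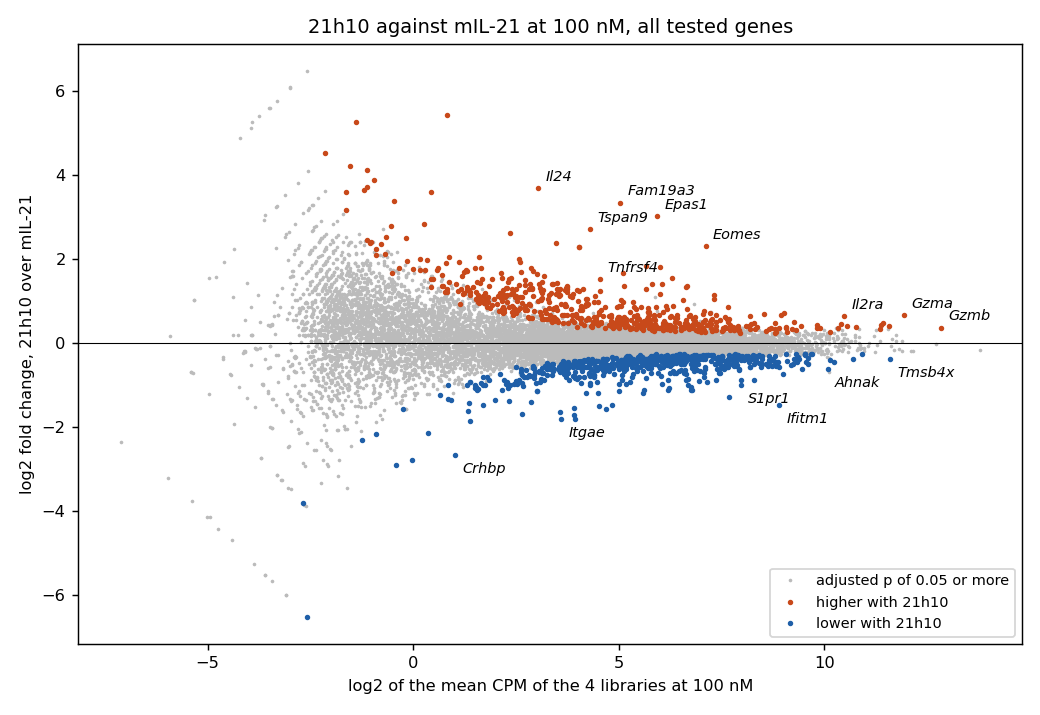
Log2 fold change of 21h10 over mIL-21 at 100 nM for each tested gene (y axis) against its mean level in CPM on a log axis (x axis), with genes past the threshold coloured by direction. The 188 risers of at least 1 on the log2 scale outnumber the 55 fallers of that size, and 2 tested genes with no read at 100 nM are not drawn.

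Set beside unstimulated cells, the genes that differed fell into 3 kinds. Among the 552 genes higher with 21h10, 315 were further from the unstimulated level with 21h10 than with mIL-21, 95 lay between the unstimulated level and that of mIL-21, and the rest had the unstimulated level between the 2 cytokines. Among the 622 lower genes the counts were 148 further, 292 between and 182 with the unstimulated level in the middle. The most frequent kind among the lower genes was thus a level between that of unstimulated cells and that with mIL-21. The kinds rest on libraries that also selected the genes, and their shares over all tested genes are not given. What lies behind the kinds was not tested.

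The largest rises were led by Il24, Fam19a3 and Epas1. Il24 (NM_053095, chr1:130882074-130887411) encodes a cytokine of the IL-10 family. Its level was 17.4 and 13.2 CPM with 21h10 against 1.08 and 1.29 CPM with mIL-21, and 0.0722 and 0.300 CPM in unstimulated cells. Both 21h10 libraries stood far above every other library of the experiment, with a fitted difference from mIL-21 of 12.9-fold (log2 fold change 3.69 ± 0.287 SE, adjusted p = 7.39e-07). Fam19a3 (chr3:104767405-104779542), which encodes a small secreted protein, had 66.0 and 53.8 CPM with 21h10 against 6.52 and 5.23 CPM with mIL-21 (log2 fold change 3.35 ± 0.162 SE, adjusted p = 4.21e-09). Its exons are shared in part with Gm43584 on the same strand, so the reads of these genes cannot be fully told apart.

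Epas1 (NM_010137, chr17:86753864-86833410) encodes the hypoxia-inducible factor HIF-2alpha. It was read at 105 and 113 CPM with 21h10 against 12.8 and 14.1 CPM with mIL-21, an 8.11-fold difference (log2 fold change 3.02 ± 0.113 SE, adjusted p = 2.48e-10). Unstimulated cells had 16.2 and 16.7 CPM, close to the mIL-21 level, so 21h10 libraries alone were high. Eomes (NM_010136, chr9:118478186-118486132), the T-box factor of effector and memory CD8 T cells, had 214 and 248 CPM with 21h10 against 44.3 and 48.0 CPM with mIL-21 (log2 fold change 2.32 ± 0.102 SE, adjusted p = 1.45e-09). The unstimulated level of Eomes was 52.7 and 60.4 CPM, and all 8 other libraries of the experiment lay below both 21h10 libraries at 100 nM. An antisense transcript, Gm33460, overlaps Eomes exons.

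Tspan9 and Plxdc2 were lower with mIL-21 than in unstimulated cells, and not with 21h10. Tspan9, a tetraspanin (chr6:127961396-128143578), had 35.3 and 33.3 CPM with 21h10 against 4.02 and 6.45 CPM with mIL-21 (log2 fold change 2.72, adjusted p = 6.98e-07), with 18.7 and 12.9 CPM in unstimulated cells. Plxdc2, a transmembrane protein with a plexin-like domain (chr2:16355740-16761132), had 8.68 and 9.03 CPM with 21h10 against 1.57 and 1.29 CPM with mIL-21 (log2 fold change 2.62, adjusted p = 1.88e-05) and 9.09 and 8.70 CPM without cytokine. For Plxdc2 the 21h10 libraries matched the unstimulated range while both mIL-21 libraries were low. Zak (chr2:72285637-72442610), a stress-activated kinase of the MAP kinase pathway, had 16.4 and 21.0 CPM with 21h10 against 3.17 and 3.97 CPM with mIL-21 (log2 fold change 2.39, adjusted p = 7.41e-07).

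The remaining large risers were sparse or had near-identical copies. H2-DMb2, a chain of the H2-DM complex that loads peptide onto MHC class II, had 1.09 and 1.56 CPM with 21h10 against 0.0583 and 0.194 CPM with mIL-21 (log2 fold change 3.39, adjusted p = 0.00321). That rested on 33 and 42 reads against 2 and 6, and H2-DMb1 shares a stretch of 1081 bases with it at 95.7% identity. Without duplicate 1 of mIL-21 its log2 fold change was 2.74 and not called (adjusted p = 0.0706), and without duplicate 2 it was 4.41. The histone H2A genes Hist1h2ap and Hist1h2ao, with log2 fold changes of 2.29 and 2.29, are identical over 452 bases, so their reads cannot be told apart.

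Among the largest falls, a group of genes was at low level in unstimulated cells, strongly induced by mIL-21 and less so by 21h10 at 100 nM. Il6ra (NM_010559, chr3:89869324-89913196), the ligand-binding chain of the IL-6 receptor, had 3.63 and 3.49 CPM in unstimulated cells. It reached 38.7 and 38.9 CPM with mIL-21 and 13.4 and 12.7 CPM with 21h10, a 2.97-fold lower level with the mimic (log2 fold change -1.57 ± 0.101 SE, adjusted p = 1.32e-07). The duplicates of each group nearly coincided. Stom, the membrane protein stomatin (chr2:35313990-35337009), had 2.12 and 2.43 CPM unstimulated, 33.1 and 34.9 CPM with mIL-21 and 12.03 and 12.2 CPM with 21h10 (log2 fold change -1.49, adjusted p = 1.45e-06).

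The same order held for Matn2 and Ifitm1. Matn2, an extracellular matrix protein of the matrilin family (chr15:34306681-34436242), had 0.722 and 0.300 CPM unstimulated, then 23.3 and 21.5 CPM with mIL-21 and 7.92 and 7.51 CPM with 21h10 (log2 fold change -1.54, adjusted p = 1.45e-05). Ifitm1 (chr7:140967429-140969827) encodes an interferon-inducible membrane protein that restricts viral entry. It rose from 7.48 and 5.29 CPM in unstimulated cells to 731 and 671 CPM with mIL-21 and 247 and 255 CPM with 21h10 (log2 fold change -1.48 ± 0.107 SE, adjusted p = 4.03e-07). Both 21h10 libraries were below both mIL-21 libraries, though well above unstimulated cells. Miat, a long non-coding RNA (chr5:112213228-112228948) whose exons hold several small RNA genes, had 23.01 and 23.4 CPM with mIL-21 and 5.43 and 8.70 CPM with 21h10 (log2 fold change -1.72, adjusted p = 2.45e-05).

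Other large falls brought 21h10 cells to or below the unstimulated level. Itgae (NM_008399, chr11:73090505-73147449) encodes the alpha E integrin CD103, which binds E-cadherin on epithelia. It was highest in unstimulated cells, at 85.7 and 74.7 CPM, and had 18.0 and 19.9 CPM with mIL-21 and 5.90 and 4.87 CPM with 21h10, 3.51-fold lower with the mimic (log2 fold change -1.81 ± 0.140 SE, adjusted p = 6.98e-07). Il18 (chr9:50554700-50581841), a pro-inflammatory cytokine of the IL-1 family, had 6.40 and 6.71 CPM unstimulated, then 25.8 and 21.8 CPM with mIL-21 and 5.96 and 7.73 CPM with 21h10 (log2 fold change -1.80 ± 0.146 SE, adjusted p = 1.07e-06). The 21h10 libraries overlapped the unstimulated pair. Bco2, a carotenoid-cleaving enzyme whose gene overlaps that of Il18 on chromosome 9, had 9.47 and 9.71 CPM with mIL-21 and 3.84 and 2.01 CPM with 21h10 (log2 fold change -1.70, adjusted p = 0.000255). Itgax, the alpha X integrin CD11c (chr7:128129526-128150657), had 9.74 and 8.18 CPM unstimulated, then 17.7 and 18.1 CPM with mIL-21 and 5.93 and 5.502 CPM with 21h10 (log2 fold change -1.65, adjusted p = 2.69e-06).

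At low level, Crhbp, a binding protein of corticotropin-releasing hormone (chr13:95431376-95444831), had 3.12 and 3.84 CPM with mIL-21 and 0.497 and 0.595 CPM with 21h10 (log2 fold change -2.67, adjusted p = 0.000107). Fxyd4, a regulator of the sodium pump (chr6:117933558-117937714), rested on 9 and 1 reads with 21h10 and 49 and 38 with mIL-21 (log2 fold change -2.91, adjusted p = 0.00531). Without duplicate 1 of 21h10 its log2 fold change was -5.04, and without duplicate 2 it was -2.14 and not called (adjusted p = 0.057).

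**Figure D2:**
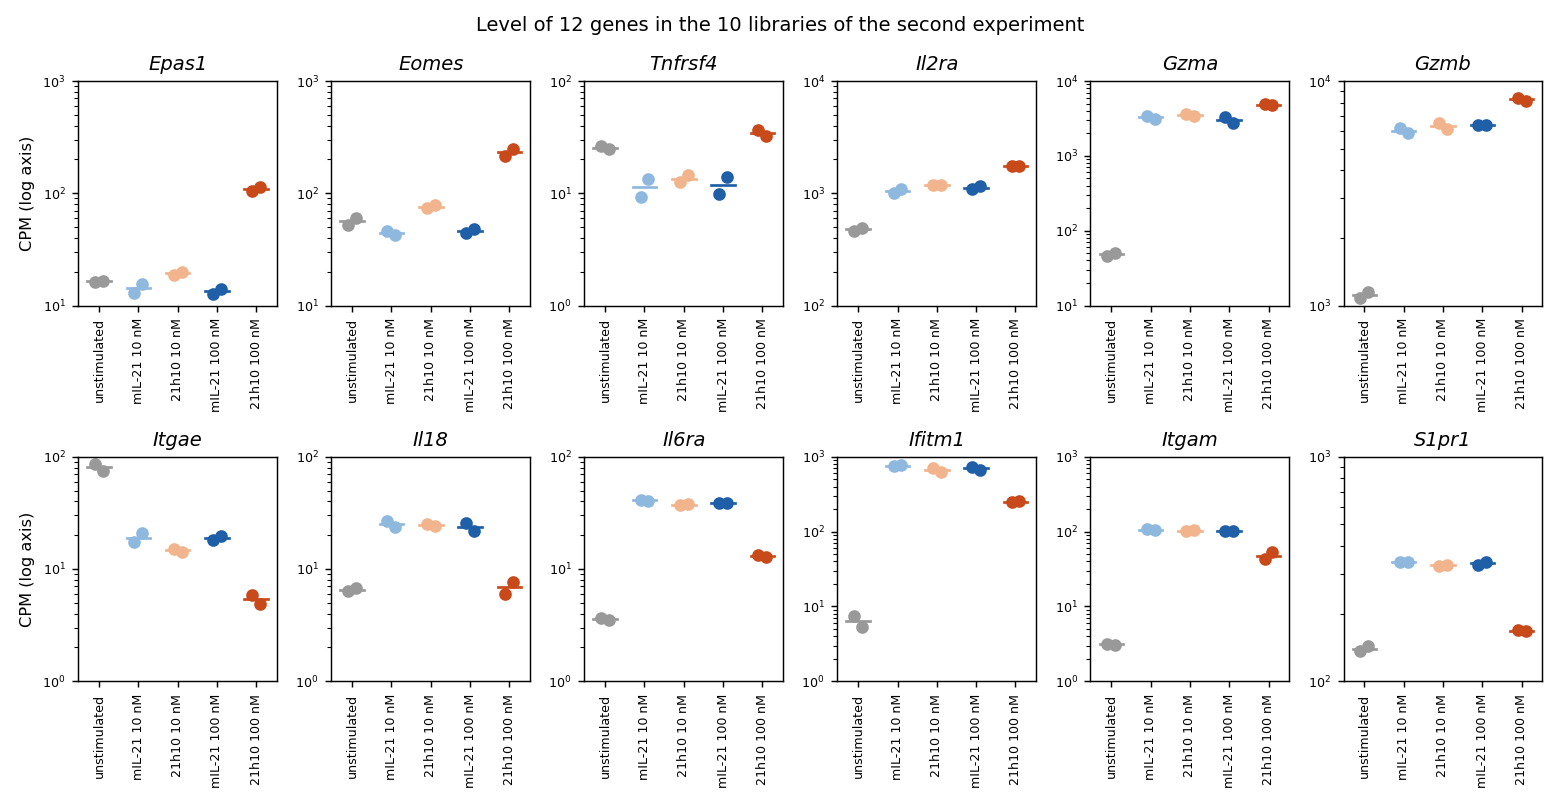
Level in CPM (y axis, log scale) of 12 genes in the 10 libraries of the experiment, by group (x axis), with 1 dot per library and lines at group means. The upper genes (Epas1, Eomes, Tnfrsf4, Il2ra, Gzma, Gzmb) are highest with 21h10 at 100 nM, and the lower genes (Itgae, Il18, Il6ra, Ifitm1, Itgam, S1pr1) are lower there than with mIL-21. The 10 nM groups lie closer together than the 100 nM groups.

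By absolute change in CPM, granzymes led. Gzmb (NM_013542, chr14:56258836-56262334), the serine protease that triggers death of target cells, had 8406 and 8155 CPM with 21h10 against 6374 and 6398 CPM with mIL-21 and 1082 and 1152 CPM in unstimulated cells (log2 fold change 0.37 ± 0.0757 SE, adjusted p = 0.00545). Gzma (chr13:113093824-113100981), its tryptase relative, had 4866 and 4768 CPM with 21h10 against 3326 and 2772 CPM with mIL-21 and 46.6 and 50.2 CPM in unstimulated cells (log2 fold change 0.66 ± 0.0923 SE, adjusted p = 0.000281). Both genes were induced by either cytokine, with both 21h10 libraries above both mIL-21 libraries. Ptma (log2 fold change 0.48, adjusted p = 0.0063), Gapdh (log2 fold change 0.41, adjusted p = 0.0138) and Tmsb10 (log2 fold change 0.42, adjusted p = 0.0048), which encode prothymosin alpha, a glycolytic enzyme and an actin-binding thymosin, complete the 5 largest rises, and each has near-identical copies elsewhere in the genome, 77 in the case of Gapdh. The 5 largest falls were Tmsb4x (log2 fold change -0.38, adjusted p = 0.0396), Ahnak (log2 fold change -0.61, adjusted p = 7.26e-05), Ifitm1 (above), Ablim1 (log2 fold change -0.38, adjusted p = 0.00399) and Samhd1 (log2 fold change -0.46, adjusted p = 0.000822). Tmsb4x, Ahnak and Ablim1 encode an actin-sequestering thymosin, a giant scaffold protein and an actin-binding LIM protein, and Samhd1 encodes an enzyme that destroys deoxynucleotides.

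The cytotoxic list (25 genes tested) had 5 members higher and 1 lower, with a median log2 fold change of 0.07. Over all tested genes, 4.01% were higher and 4.52% lower. Beside the granzymes, Prf1, the pore-forming perforin, had 330.3 and 321 CPM with 21h10 against 229.7 and 265 CPM with mIL-21 (log2 fold change 0.40, adjusted p = 0.0147), a call lost with library sizes from mapped reads. Srgn, the proteoglycan that packs granule proteins, had 705 and 726 CPM with 21h10 against 496 and 523 CPM with mIL-21 (log2 fold change 0.49, adjusted p = 0.00456). Cst7, a cysteine protease inhibitor of granules, had 197.6 and 189.6 CPM with 21h10 against 135.4 and 135.96 CPM with mIL-21 (log2 fold change 0.51, adjusted p = 0.000352), and Ctsc, the cathepsin that activates progranzymes, moved the other way at -0.29 (adjusted p = 0.0364). Gzma and Cst7 were the members called whichever library was left out. The Gzmb call was lost without duplicate 1 of mIL-21 (adjusted p = 0.0566) and without either 21h10 library (0.0832 and 0.0593). Fasl did not pass, with 30.5 and 30.97 CPM with 21h10 against 25.2 and 22.9 CPM with mIL-21 (log2 fold change 0.35, adjusted p = 0.0536), nor did Gzmk, with 18.9 and 19.4 CPM with 21h10 against 20.3 and 21.8 CPM with mIL-21 (log2 fold change -0.14, adjusted p = 0.55).

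Of 13 genes of the IL-21 receptor, kinase and STAT list, 3 were lower, beside 4.52% of all tested genes, none was higher, and the median log2 fold change was -0.08. Il21r itself had 438 and 391 CPM with 21h10 against 404 and 387 CPM with mIL-21. The fitted log2 difference was 0.07, with a 95% interval of -0.10 to 0.24. Unstimulated cells had 126 and 118 CPM, so both cytokines raised their own receptor to overlapping levels. Il2rg, the common gamma chain, had 729 and 754 CPM with 21h10 against 865 and 924 CPM with mIL-21 (log2 fold change -0.27, adjusted p = 0.0397), Jak1 had 759.7 and 768 CPM with 21h10 against 913 and 907 CPM with mIL-21 (log2 fold change -0.25, adjusted p = 0.0486), and Stat6 had 146 and 137.7 CPM with 21h10 against 169 and 175 CPM with mIL-21 (log2 fold change -0.28, adjusted p = 0.0458). None of these 3 calls held with each of the 4 libraries left out in turn. Stat3 had 319.8 and 326 CPM with 21h10 against 366 and 375 CPM with mIL-21 (log2 fold change -0.20, adjusted p = 0.161).

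Classical early targets of IL-21 were induced by both cytokines, with small differences between them. Socs3, the feedback inhibitor of STAT3 signalling, rose from 11.9 and 11.8 CPM to 293 and 291 CPM with mIL-21 and 262 and 261 CPM with 21h10. Its log2 fold change between the cytokines was -0.16, with a 95% interval of -0.32 to 0.00 (adjusted p = 0.198). Pim1, a survival kinase gene, had 421 and 406 CPM with 21h10 against 423 and 393 CPM with mIL-21, with an interval of -0.15 to 0.19, and 69.5 and 62.2 CPM in unstimulated cells. Bcl3, a partner of NF-kappaB, had 166 and 159.8 CPM with 21h10 against 150.2 and 158 CPM with mIL-21, with an interval of -0.13 to 0.30. These intervals are not adjusted for the number of genes. Cish and Ptpn2 alone passed, both upward, among the 17 feedback inhibitors and early STAT targets, beside 4.01% of all tested genes called higher. Cish, a feedback inhibitor induced through STAT5, had 70.0 and 62.0 CPM with 21h10 against 38.7 and 39.7 CPM with mIL-21 (log2 fold change 0.75 ± 0.132 SE, adjusted p = 0.00193). Both 21h10 libraries lay above all others for Cish, and the call held with each library left out. Ptpn2, a phosphatase that acts on JAKs and STATs, had 215 and 221 CPM with 21h10 against 174 and 166 CPM with mIL-21 (log2 fold change 0.36, adjusted p = 0.0327), and its call was lost with library sizes from mapped reads.

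Of 16 effector transcription factor genes, 4 were higher with 21h10 and none lower (median log2 fold change 0.06), beside 4.01% of all tested genes higher. Beside Eomes these were Batf, an AP-1 family factor of effector T cells, with 68.0 and 64.2 CPM with 21h10 against 40.4 and 41.8 CPM with mIL-21 (log2 fold change 0.69 ± 0.0982 SE, adjusted p = 0.000339), and Prdm1, which encodes the repressor Blimp-1, with 104 and 97.9 CPM with 21h10 against 77.5 and 84.5 CPM with mIL-21 (log2 fold change 0.32, adjusted p = 0.0398). Maf, a factor that drives Il10, had 10.0 and 8.48 CPM with 21h10 against 5.04 and 4.58 CPM with mIL-21 (log2 fold change 0.94, adjusted p = 0.0219), at low level. Tbx21, the other T-box factor of this list, did not pass: it had 72.3 and 70.6 CPM with 21h10 against 76.2 and 77.6 CPM with mIL-21, with a 95% interval of -0.29 to 0.08 for the log2 fold change. Id2 had 679 and 694 CPM with 21h10 against 676 and 659.9 CPM with mIL-21, with an interval of -0.13 to 0.21. Eomes and Batf were called without each library in turn, and the Prdm1 call was lost with library sizes from mapped reads.

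The memory and quiescence list went mostly down. Of 16 genes, 8 were lower and 1 higher, with a median log2 fold change of -0.37, beside a background of 4.52% called lower. S1pr1 (NM_007901, chr3:115710433-115715055), the sphingosine 1-phosphate receptor that lets T cells leave lymphoid tissue, had 136.2 and 143.1 CPM unstimulated, then 329 and 341 CPM with mIL-21 and 169 and 168 CPM with 21h10 (log2 fold change -0.99 ± 0.0736 SE, adjusted p = 5.23e-07). With 21h10 at 100 nM it rose little from the unstimulated level, while the mIL-21 libraries were the higher pair. Klf2, the factor that drives S1pr1, had 95.4 and 97.3 CPM with mIL-21 and 71.8 and 71.9 CPM with 21h10 (log2 fold change -0.42, adjusted p = 0.0164), and its relative Klf3 had 25.5 and 27.0 CPM with mIL-21 and 14.8 and 16.5 CPM with 21h10 (log2 fold change -0.75, adjusted p = 0.00138). Btg1, an anti-proliferative gene of resting lymphocytes, had 237 and 245 CPM unstimulated, then 919.9 and 896 CPM with mIL-21 and 662 and 628 CPM with 21h10 (log2 fold change -0.49, adjusted p = 0.000715).

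Ccr7, the receptor for homing to lymph nodes, had 197.7 and 203.9 CPM with mIL-21 and 141.04 and 122 CPM with 21h10 (log2 fold change -0.61, adjusted p = 0.00386). Lef1, Bach2 and Tsc22d3 were lower, with log2 fold changes of -0.35, -0.40 and -0.46 (adjusted p = 0.025, 0.00828 and 0.0171). They encode a Wnt pathway factor, a repressor of effector genes and the glucocorticoid-induced leucine zipper. Satb1, a chromatin organizer, was the member that rose, with 1436 and 1450 CPM with 21h10 against 1092 and 1153 CPM with mIL-21 (log2 fold change 0.36, adjusted p = 0.00779). Tcf7, a memory factor, had 906 and 933 CPM with 21h10 against 1007 and 1071 CPM with mIL-21 and did not pass (log2 fold change -0.18, adjusted p = 0.165), and Il7r had 491 and 499 CPM with 21h10 against 556 and 534 CPM with mIL-21 (log2 fold change -0.14, adjusted p = 0.342). Klf3, S1pr1 and Btg1 were called whichever library was left out.

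Of 29 integrin and adhesion genes, 12 were lower and 2 higher (median log2 fold change -0.18), where 4.52% of all tested genes were lower and 4.01% higher. Itgam (chr7:128062640-128118491), the alpha M integrin CD11b, had 3.15 and 3.08 CPM unstimulated, then 101 and 101 CPM with mIL-21 and 42.6 and 53.0 CPM with 21h10 (log2 fold change -1.08 ± 0.0977 SE, adjusted p = 3.43e-06). A transcript of 99.9% identity over 3453 bases, Gm49368, shares its exons. Itga4 (chr2:79255426-79333114) and Itgb7 (chr15:102215994-102233405) form the alpha 4 beta 7 integrin of gut homing. Itga4 had 406 and 408 CPM with mIL-21 and 205.97 and 239.6 CPM with 21h10 (log2 fold change -0.87, adjusted p = 0.000214) and Itgb7 had 643 and 641 CPM with mIL-21 and 389 and 378 CPM with 21h10 (log2 fold change -0.74, adjusted p = 0.000187). With 21h10 both chains were below their unstimulated levels, which were 304 and 416 CPM and 491 and 395 CPM.

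Cd69, an early activation marker that retains cells in tissue by opposing S1pr1, had 65.6 and 67.2 CPM with mIL-21 and 46.8 and 40.7 CPM with 21h10 (log2 fold change -0.60, adjusted p = 0.00115), and Cd48, a ligand of 2B4, had 353 and 344 CPM with mIL-21 and 238 and 229 CPM with 21h10 (log2 fold change -0.58, adjusted p = 0.000322). Lower too were Itga1, Itga2, Itga6, Icam2 and Cd9, with log2 fold changes of -1.12, -0.77, -0.30, -0.46 and -0.56. The members that rose were Itgb3, the beta chain of the vitronectin receptor (log2 fold change 0.32, adjusted p = 0.0486, lost with library sizes from mapped reads), and the tetraspanin gene Cd81, which had 4.04 and 4.16 CPM with 21h10 against 1.95 and 1.77 CPM with mIL-21 (log2 fold change 1.14, adjusted p = 0.00333). Among integrins, Itga4, Itgae, Itgam, Itgax and Itgb7 were called without each library in turn.

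NK-type receptors pointed the same way, with 6 of 20 lower, none higher and a median log2 fold change of -0.35. The shares over all tested genes were 4.52% lower and 4.01% higher. Klrd1 (chr6:129588092-129598775) encodes CD94, which pairs with the NKG2 proteins of Klrc1 and Klrc2 to read the non-classical class I molecule Qa-1. Klrd1 had 347 and 305 CPM with mIL-21 and 179 and 173 CPM with 21h10 (log2 fold change -0.89 ± 0.0979 SE, adjusted p = 3.1e-05). Klrc1 had 104 and 91.6 CPM with mIL-21 and 57.7 and 66.5 CPM with 21h10 (log2 fold change -0.66, adjusted p = 0.000697), though Klrc1 and Klrc2 share near-identical stretches and their reads may be mixed. Klrk1, the activating receptor NKG2D, had 259 and 228 CPM with mIL-21 and 166 and 160.2 CPM with 21h10 (log2 fold change -0.58, adjusted p = 0.00087). For these genes the 21h10 libraries lay below the unstimulated level as well, or near it. Cd7 had 7.89 and 6.71 CPM unstimulated, then 128 and 149 CPM with mIL-21 and 91.1 and 83.2 CPM with 21h10 (log2 fold change -0.67, adjusted p = 0.000442), and Klri2 had 6.90 and 6.45 CPM with mIL-21 and 3.08 and 3.31 CPM with 21h10 (log2 fold change -1.06, adjusted p = 0.00306). The defining NK cell gene Ncr1 was near absent throughout, as given above.

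**Figure D3:**
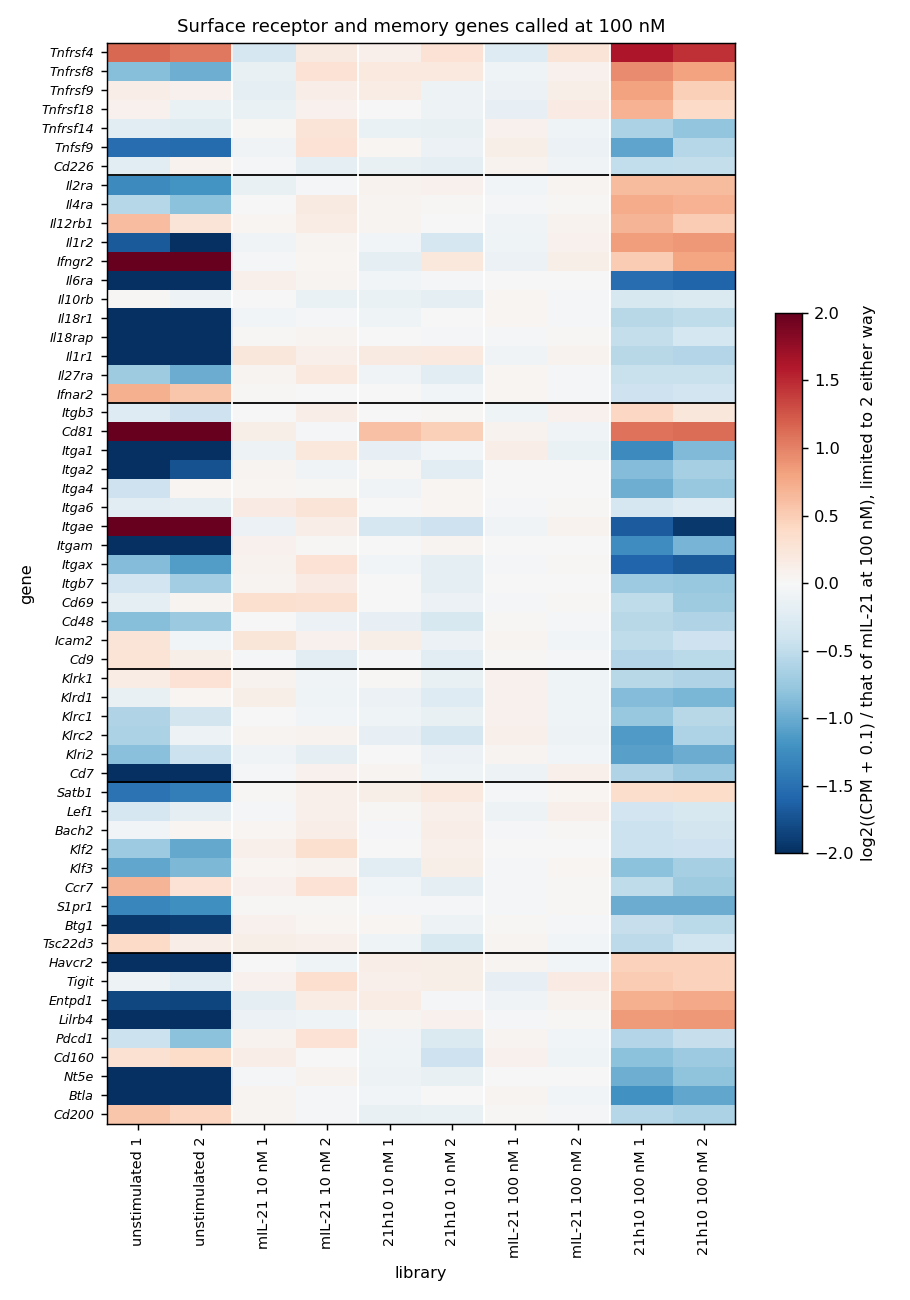
Levels of the 57 genes of 6 lists that passed the threshold at 100 nM (rows) in the 10 libraries of the experiment (columns), as log2 of CPM plus 0.1 over the mean of mIL-21 at 100 nM, with colours limited to 2 either way. The 21h10 columns at 100 nM stand apart from the 6 other treated columns, which are close to the reference. Unstimulated columns differ from all of them. The rows were selected on the 100 nM libraries and set to the mIL-21 mean there, so the gap between those groups is no separate evidence.

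The TNF receptor family held several of the rises among surface receptors. The 4 members Tnfrsf4, Tnfrsf8, Tnfrsf9 and Tnfrsf18 rose among 21 costimulatory genes, 3 others fell, and the median log2 fold change was -0.00. Among all tested genes 4.01% rose and 4.52% fell. Tnfrsf4 (NM_011659, chr4:156013595-156016613), the costimulatory receptor OX40, had 36.5 and 32.6 CPM with 21h10 against 9.84 and 14.1 CPM with mIL-21 (log2 fold change 1.53 ± 0.173 SE, adjusted p = 3.69e-05). Its unstimulated level was 26.2 and 24.7 CPM, so mIL-21 cells were low and 21h10 cells above the unstimulated pair. Tnfrsf8, or CD30 (chr4:145267132-145315164), had 80.6 and 73.5 CPM with 21h10 against 39.8 and 44.4 CPM with mIL-21 (log2 fold change 0.87 ± 0.123 SE, adjusted p = 0.000305). Tnfrsf9, or 4-1BB (chr4:150920155-150946104), had 140.7 and 112 CPM with 21h10 against 74.4 and 87.6 CPM with mIL-21 (log2 fold change 0.64 ± 0.127 SE, adjusted p = 0.00472), and Tnfrsf18, or GITR (chr4:156026322-156028894), had 71.2 and 57.7 CPM with 21h10 against 39.5 and 49.4 CPM with mIL-21 (log2 fold change 0.54 ± 0.129 SE, adjusted p = 0.0164). All 4 genes lie on chromosome 4. The calls of Tnfrsf4 and Tnfrsf8 held with each library left out.

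Tnfrsf14 (chr4:154918487-154928620), which encodes HVEM, lies on the same chromosome and fell, with 18.0 and 16.0 CPM with mIL-21 and 10.9 and 9.74 CPM with 21h10 (log2 fold change -0.72, adjusted p = 0.00277). Its partner Btla, an inhibitory receptor of T cells, fell as well (below). Tnfsf9, the ligand of 4-1BB, had 9.41 and 7.93 CPM with mIL-21 and 4.11 and 5.76 CPM with 21h10 (log2 fold change -0.82, adjusted p = 0.0171), and Cd226, the activating receptor DNAM-1, had 132 and 121 CPM with mIL-21 and 89.7 and 90.7 CPM with 21h10 (log2 fold change -0.49, adjusted p = 0.00538). Tigit, which competes with CD226 for the ligand CD155, rose (log2 fold change 0.47, adjusted p = 0.0224, lost with library sizes from mapped reads), with 40.7 and 39.4 CPM with 21h10 against 25.6 and 32.1 CPM with mIL-21.

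Promoter sequence is shown for members of this group that rose and for Gzmb, as description. Sequence of the members that fell is not shown, and whether any motif has a part in the rises was not tested. RefSeq windows of 250 bases before the start site (GRCm38.p6) were on hand for 10114 of the 13772 tested genes and were searched on both strands for TTCNNNGAA (STAT type), TGAGTCA (AP-1 type) and TCACACCT (T-box type). The motif TGAGTCA was found in 4.11% of all windows, 7.33% of windows of the genes that rose (30 of 409) and 4.13% of those that fell. TTCNNNGAA was found in 7.3% of all windows, 9.54% of risers and 10.2% of fallers. TCACACCT was found in 0.929%, 1.22% and 1.74%. A match describes the letters of the window and is not a bound site. Below, each sequence is written on the strand of its gene, with the match in capitals. The Gzmb window is chr14:56262335-56262584 on the minus strand, with the match 58 bases before the start. The Tnfrsf8 window is chr4:145315165-145315414 on the minus strand, with its match at 132 bases. For Tnfrsf9, on the plus strand, the STAT-type match with its flanks is chr4:150927853-150927881 and the AP-1-type match is chr4:150927974-150927998, the latter 15 bases before a start site that lies inside the span given for the gene. For Tnfrsf18, on the plus strand, it is chr4:156026213-156026241, 99 bases before the start. The Tnfrsf4 window held none of the 3 motifs.
Gzmb: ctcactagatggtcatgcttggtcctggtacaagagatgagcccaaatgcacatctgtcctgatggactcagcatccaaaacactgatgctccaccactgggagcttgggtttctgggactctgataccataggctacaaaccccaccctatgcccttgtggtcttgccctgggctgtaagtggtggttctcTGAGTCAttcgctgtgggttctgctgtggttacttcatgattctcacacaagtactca
Tnfrsf8: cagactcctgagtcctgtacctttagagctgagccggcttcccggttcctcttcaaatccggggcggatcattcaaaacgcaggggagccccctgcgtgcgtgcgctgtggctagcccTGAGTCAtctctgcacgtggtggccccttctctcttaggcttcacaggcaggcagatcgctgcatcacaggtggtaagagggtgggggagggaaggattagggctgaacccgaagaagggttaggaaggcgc
Tnfrsf9, STAT type: caacagctgaTTCCAAGAAacccttcaga
Tnfrsf9, AP-1 type: cctgctcagtTGAGTCAcaggtcct
Tnfrsf18, STAT type: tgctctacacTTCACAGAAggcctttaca

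Cytokine receptor subunits were called in both directions. Of 28 tested, 5 rose and 7 fell (median log2 fold change -0.18), where 4.01% of all tested genes rose and 4.52% fell. Il2ra (NM_008367, chr2:11642792-11693194), the alpha chain of the IL-2 receptor that marks activated T cells, had 466 and 489 CPM unstimulated, then 1747 and 1747 CPM with 21h10 against 1085 and 1160 CPM with mIL-21 (log2 fold change 0.64 ± 0.0768 SE, adjusted p = 7.14e-05). Il4ra, which pairs with the common gamma chain, had 658 and 635 CPM with 21h10 against 385 and 399 CPM with mIL-21 (log2 fold change 0.72 ± 0.0921 SE, adjusted p = 0.000128). In both genes the 21h10 libraries were the highest of the experiment. Il12rb1, the shared chain of the IL-12 and IL-23 receptors, had 73.8 and 65.2 CPM with 21h10 against 43.7 and 48.3 CPM with mIL-21 (log2 fold change 0.60, adjusted p = 0.00388), and the decoy receptor Il1r2 and Ifngr2 rose at low level (0.87 and 0.66 on the log2 scale), the latter call being lost with library sizes from mapped reads.

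Beside Il6ra, both chains of the IL-18 receptor were lower with 21h10, as was Il18 itself. Il18r1 had 99.9 and 115 CPM unstimulated, then 492 and 463 CPM with mIL-21 and 326 and 337 CPM with 21h10 (log2 fold change -0.53 ± 0.0830 SE, adjusted p = 0.000781), and Il18rap had 109 and 112 CPM with mIL-21 and 79.1 and 86.8 CPM with 21h10 (log2 fold change -0.41, adjusted p = 0.00453). Il1r1, the signalling receptor of IL-1, had 18.2 and 19.9 CPM with mIL-21 and 13.0 and 12.6 CPM with 21h10 (log2 fold change -0.57, adjusted p = 0.00992). Il27ra, Ifnar2 and Il10rb fell too, with log2 fold changes of -0.45, -0.40 and -0.31. Il2rb, which serves IL-2 and IL-15, did not pass, with 624 and 587 CPM with 21h10 against 666 and 619.6 CPM with mIL-21 and an interval of -0.32 to 0.14. Il2ra, Il4ra, Il6ra and Il18r1 were called without each library in turn.

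Inhibitory receptors moved in both directions, 4 of 18 up and 5 down (median log2 fold change -0.27), beside 4.01% up and 4.52% down over all tested genes. Lilrb4 (chr10:51490898-51496613), an inhibitory immunoglobulin-like receptor, rose from 9.19 and 10.96 CPM unstimulated to 141.6 and 145 CPM with mIL-21 and 259.6 and 261 CPM with 21h10 (log2 fold change 0.86 ± 0.0825 SE, adjusted p = 7.49e-06), with reads that may be shared with its close copy Lilr4b. Havcr2, the exhaustion-linked receptor TIM-3, had 174 and 174 CPM with 21h10 against 131 and 122 CPM with mIL-21 (log2 fold change 0.46, adjusted p = 0.00717). Pdcd1, which encodes PD-1, went the other way, with 29.1 and 26.9 CPM with mIL-21 and 18.7 and 20.4 CPM with 21h10 (log2 fold change -0.52, adjusted p = 0.0263). Btla (chr16:45223705-45252895) had 24.2 and 29.8 CPM unstimulated, then 154 and 142.8 CPM with mIL-21 and 64.1 and 72.2 CPM with 21h10 (log2 fold change -1.12 ± 0.10 SE, adjusted p = 3.18e-06), the largest fall among the members that passed. Cd160, like Btla a partner of HVEM, had 26.2 and 23.5 CPM with mIL-21 and 14.1 and 14.9 CPM with 21h10 (log2 fold change -0.78, adjusted p = 0.000988), and Cd200 had 14.7 and 14.4 CPM with mIL-21 and 9.71 and 9.33 CPM with 21h10 (log2 fold change -0.61, adjusted p = 0.00532). Lilrb4, Btla and Cd160 were called whichever library was left out. The calls of Havcr2, Pdcd1, Cd200 and Tigit did not hold with each library left out in turn. Lag3 and Ctla4 did not pass (0.22 and -0.06 on the log2 scale, intervals -0.04 to 0.48 and -0.26 to 0.14).

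The enzymes that turn extracellular ATP into adenosine parted. Entpd1, or CD39, which breaks ATP down to AMP, had 11.1 and 10.9 CPM unstimulated, then 64.5 and 66.3 CPM with 21h10 against 37.3 and 41.2 CPM with mIL-21 (log2 fold change 0.74 ± 0.114 SE, adjusted p = 0.000688). Nt5e, or CD73, which makes adenosine from AMP, had 23.5 and 25.1 CPM unstimulated, then 65.5 and 74.2 CPM with 21h10 against 128 and 130.2 CPM with mIL-21 (log2 fold change -0.89 ± 0.0860 SE, adjusted p = 8.16e-06). Either cytokine raised both genes, and at 100 nM the mimic gave the higher Entpd1 and the lower Nt5e in both libraries. Both calls held with each library left out.

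Among 18 cytokine genes, 3 rose and 4 fell (median log2 fold change 0.07), where 4.01% of all tested genes rose and 4.52% fell. Il10 (chr1:131019845-131024970), an anti-inflammatory cytokine that IL-21 is known to induce, was almost absent from unstimulated cells (0.192 and 0.0818 CPM) and had 75.2 and 67.6 CPM with 21h10 against 45.2 and 43.8 CPM with mIL-21 (log2 fold change 0.68 ± 0.10 SE, adjusted p = 0.000426). Osm, the IL-6 family cytokine oncostatin M, had 67.7 and 62.3 CPM with mIL-21 and 38.7 and 34.2 CPM with 21h10 (log2 fold change -0.83 ± 0.105 SE, adjusted p = 0.000108), Tgfb3 had 15.7 and 17.6 CPM with mIL-21 and 10.2 and 9.03 CPM with 21h10 (log2 fold change -0.80, adjusted p = 0.00396) and Tnf had 7.11 and 6.45 CPM with mIL-21 and 4.67 and 4.39 CPM with 21h10 (log2 fold change -0.58, adjusted p = 0.0458). Mif passed narrowly (log2 fold change 0.42, adjusted p = 0.0499), and its call was lost with library sizes from mapped reads. Ifng, the signature cytokine of effector CD8 T cells, had 4.19 and 4.75 CPM unstimulated, then 56.4 and 49.3 CPM with 21h10 against 52.5 and 51.7 CPM with mIL-21, with an interval of -0.19 to 0.23 for the log2 fold change.

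Chemokines were called in both directions, 3 of 12 down and 1 up (median log2 fold change -0.45), beside 4.52% down and 4.01% up over all tested genes. Ccl5 had 176 and 144 CPM with mIL-21 and 89.1 and 82.3 CPM with 21h10 (log2 fold change -0.90 ± 0.116 SE, adjusted p = 0.000135), Ccl4 had 50.2 and 57.6 CPM with mIL-21 and 33.2 and 34.3 CPM with 21h10 (log2 fold change -0.67, adjusted p = 0.00181) and Ccl3 had 20.3 and 18.9 CPM with mIL-21 and 9.57 and 12.5 CPM with 21h10 (log2 fold change -0.83, adjusted p = 0.00178). All 3 calls held with each library left out. Cxcl10 rose at very low level, with 1.03 and 1.12 CPM with 21h10 against 0.379 and 0.290 CPM with mIL-21 (log2 fold change 1.66, adjusted p = 0.0193). Of 20 chemokine and sphingosine phosphate receptors, 2 were higher and 4 lower, beside the same shares over all tested genes. Cxcr3, the receptor of Cxcl10 on effector T cells, had 50.2 and 51.8 CPM with mIL-21 and 29.7 and 29.0 CPM with 21h10 (log2 fold change -0.80 ± 0.0938 SE, adjusted p = 5.69e-05), and Ccr4 had 12.4 and 11.9 CPM with 21h10 against 4.57 and 6.16 CPM with mIL-21 (log2 fold change 1.19, adjusted p = 0.000269). S1pr4 fell beside S1pr1 and Ccr7 (log2 fold change -0.48, adjusted p = 0.0319), and Ccr9 rose at low level (log2 fold change 0.94, adjusted p = 0.0457, lost with library sizes from mapped reads).

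**Figure D4:**
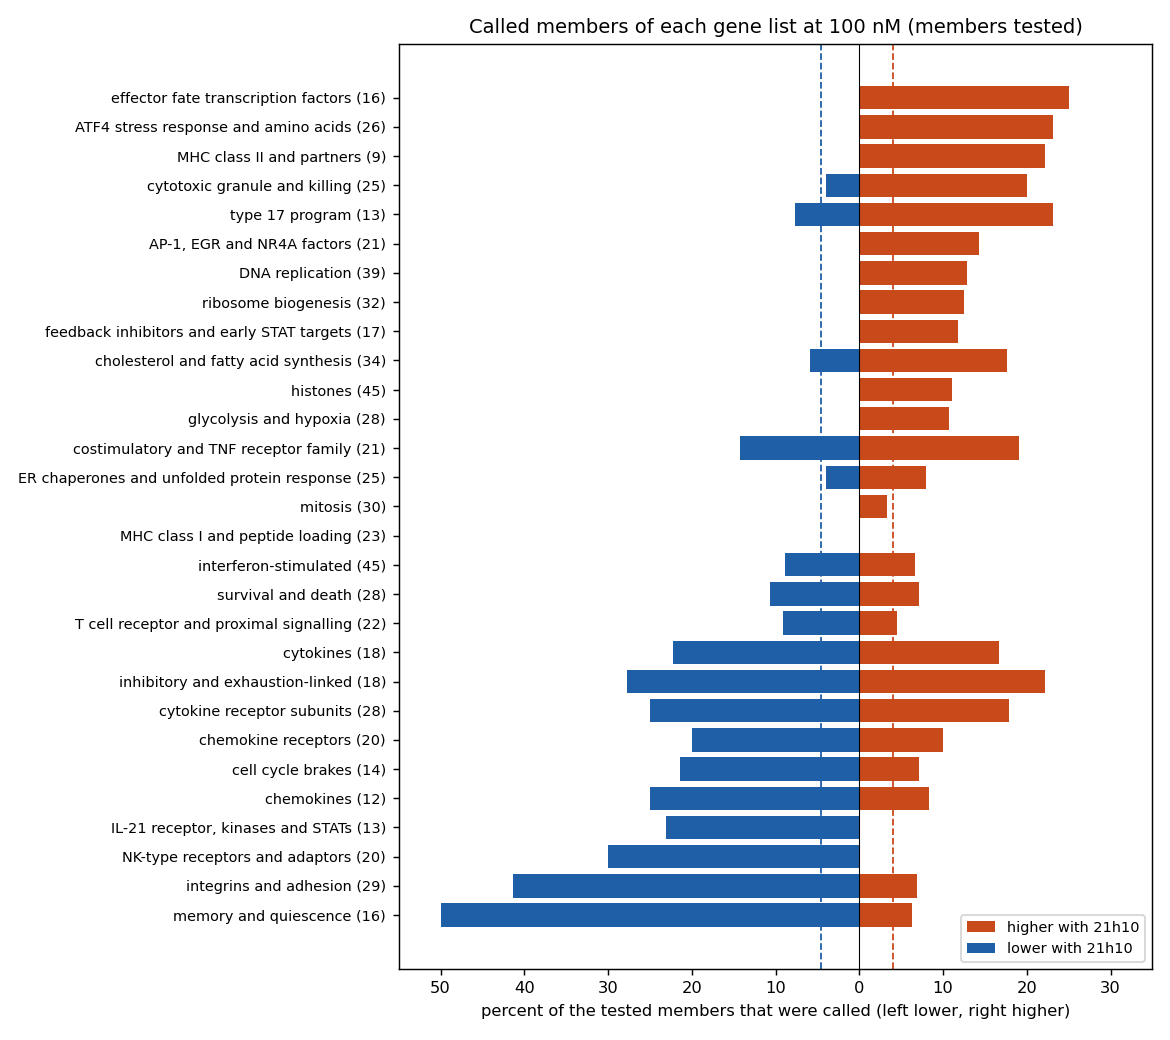
Share of tested members called higher (right) and lower (left) with 21h10 at 100 nM, in percent (x axis), for 29 gene lists (y axis), with dashed lines at the shares over all tested genes, 4.01% higher and 4.52% lower. The memory, integrin, NK receptor and inhibitory lists extend furthest to the lower side, and class I genes have no call.

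Survival genes held 2 rises and 3 falls among 28, beside 4.01% higher and 4.52% lower over all tested genes. Bcl2 (chr1:106538176-106714290), the founding inhibitor of mitochondrial cell death, had 153 and 161 CPM unstimulated, then 476 and 444 CPM with 21h10 against 278 and 294 CPM with mIL-21 (log2 fold change 0.69 ± 0.0787 SE, adjusted p = 4.29e-05). Its antagonists split: Bcl2l11, or Bim, had 141.003 and 135.96 CPM with 21h10 against 105 and 111 CPM with mIL-21 (log2 fold change 0.36, adjusted p = 0.0184, lost with library sizes from mapped reads), and Pmaip1, or Noxa, had 127 and 112 CPM with mIL-21 and 79.4 and 73.9 CPM with 21h10 (log2 fold change -0.64, adjusted p = 0.000632). Bcl2 and Pmaip1 were called without each library in turn. Cdkn1a, the p53 target and cell cycle inhibitor p21, had 73.2 and 55.0 CPM with 21h10 against 38.9 and 43.7 CPM with mIL-21 (log2 fold change 0.63, adjusted p = 0.00936), while the other brakes that passed, Btg1, Btg2 and Trp53inp1, fell.

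Metabolic and growth lists shifted by small amounts. Their counts stand beside 4.01% higher and 4.52% lower over all tested genes. Of 28 glycolysis and hypoxia genes, 3 rose (Gapdh, Bnip3 and Vegfa), 27 had a positive log2 fold change and the median was 0.27. Bnip3, a mitophagy receptor induced by hypoxia, had 181 and 148 CPM with 21h10 against 82.5 and 121 CPM with mIL-21 (log2 fold change 0.70, adjusted p = 0.0319), with a wide gap between the mIL-21 duplicates, and Vegfa had 28.2 and 23.1 CPM with 21h10 against 14.8 and 18.6 CPM with mIL-21 (log2 fold change 0.62, adjusted p = 0.0235). Of 26 genes of amino acid supply and the ATF4 response, 6 rose and 24 were positive (median 0.35). Asns, asparagine synthetase, had 64.0 and 64.4 CPM with 21h10 against 46.5 and 48.2 CPM with mIL-21 (log2 fold change 0.44, adjusted p = 0.00543), and Slc7a5, the large amino acid transporter, had 148 and 161 CPM with 21h10 against 108 and 110.4 CPM with mIL-21 (log2 fold change 0.50, adjusted p = 0.00321). None of these glycolysis and ATF4 calls held with each library left out in turn, and with mapped-read library sizes 1 and 3 of them remained.

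DNA replication genes were positive in 36 of 39 cases with a median of 0.15, and 5 rose (Cdc45, Orc1, Rfc3, Tyms and Lig1), of which 1 remained with mapped-read library sizes. Mitosis genes showed 1 rise of 30, Plk1, lost under that scaling, beside 4.01% of all tested genes called higher. Mki67, the proliferation marker, had 2067 and 2271 CPM with 21h10 against 2120 and 2230 CPM with mIL-21, with an interval of -0.24 to 0.23. Ribosome biogenesis gave 4 rises of 32 and the unfolded protein response 2 rises and 1 fall of 25. With mapped-read library sizes 1 rise remained in each of these lists, beside that fall, and none of their calls held with each library left out. Among 34 lipid synthesis genes, 6 rose and 2 fell, and with mapped-read library sizes 3 of the rises (without Pmvk, Scd1 and Scd2) and both falls remained. Fads2, a fatty acid desaturase, had 51.1 and 45.3 CPM with 21h10 against 26.4 and 31.2 CPM with mIL-21 (log2 fold change 0.74 ± 0.109 SE, adjusted p = 0.000411), and Abca1, the cholesterol exporter, had 8.39 and 8.23 CPM with mIL-21 and 4.47 and 4.09 CPM with 21h10 (log2 fold change -0.95, adjusted p = 0.00181). Those 2 genes were called without each library in turn.

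Beside 8.52% called over all tested genes, none of 23 MHC class I and loading genes passed, 2 of 9 class II genes rose, and 7 of 45 interferon-stimulated genes were called. H2-DMa, the partner chain of H2-DMb2, had 31.1 and 21.5 CPM unstimulated, then 30.3 and 28.4 CPM with 21h10 against 13.3 and 13.7 CPM with mIL-21 (log2 fold change 1.12 ± 0.149 SE, adjusted p = 0.000186), so the 21h10 libraries were near the unstimulated level and mIL-21 libraries below it. Brd2 exons overlap H2-DMa on the other strand. Of the interferon-stimulated genes, Ifit1, Gbp2 and Gbp4 rose and Oas3, Iigp1, Trim30a and Samhd1 fell (median 0.06). Gbp2 had 611 and 608 CPM with 21h10 against 462 and 475 CPM with mIL-21 (log2 fold change 0.38, adjusted p = 0.00451), and Oas3 had 132 and 134.6 CPM with mIL-21 and 104 and 101 CPM with 21h10 (log2 fold change -0.37, adjusted p = 0.0139).

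T cell receptor genes held 1 rise and 2 falls of 22, near the shares over all tested genes, 4.01% higher and 4.52% lower. Trat1 (chr16:48730774-48810547), an adaptor that binds the T cell receptor complex, had 5.27 and 6.06 CPM unstimulated, then 9.04 and 10.0 CPM with 21h10 against 2.45 and 2.52 CPM with mIL-21 (log2 fold change 1.94 ± 0.206 SE, adjusted p = 2.25e-05). Cd8a fell slightly, with 581 and 592 CPM with mIL-21 and 488 and 495 CPM with 21h10 (log2 fold change -0.26, adjusted p = 0.0413), as did Cd6 (log2 fold change -0.43, adjusted p = 0.00703). Of 21 AP-1, EGR and NR4A genes, Jun, Batf and Maff rose, and Jun had 133.6 and 132 CPM with 21h10 against 84.3 and 94.0 CPM with mIL-21 (log2 fold change 0.58 ± 0.0871 SE, adjusted p = 0.000561). The type 17 list showed 3 rises (Maf, Il10 and Batf) and 1 fall (Il1r1) of 13, genes that other lists hold too. Histone genes showed 5 rises of 45 with a median of -0.22, all in H2A genes with near-identical copies. A heat map list holds genes that the study chose to show from this series and is no independent evidence of direction. Of its 20 genes, Tigit, Bcl2, Prf1, Prdm1, Gzmb and Cish were higher and Cd8a and Ccr7 lower. Over all tested genes 4.01% were higher and 4.52% lower. Medians near 0 changed sign with library sizes from mapped reads for 7 lists, namely feedback inhibitors, cytotoxic genes, effector factors, cytokines, class I, interferon and mitosis genes.

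At 10 nM in the same experiment the differences were smaller and seldom passed the threshold. Eomes alone of 13772 genes (0.00726%) passed the threshold, with 73.2 and 78.2 CPM for 21h10 and 46.1 and 42.6 CPM for mIL-21, while 1208 genes had an unadjusted p under 0.05. DESeq2 called 13 genes and limma on RPKM none, while 179 were called with no filter on low counts. Other settings are given below. The genes higher at 100 nM had a median log2 fold change of 0.22 at 10 nM and those lower a median of -0.12. The sign at 10 nM was the same for 476 of the 552 higher genes and 553 of the 622 lower genes. Over all tested genes, which are not independent replicates, Pearson's r of the log2 fold changes at 100 and 10 nM was 0.33. The differences at the 2 doses share no library.

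The change of the difference from 10 to 100 nM was tested directly. It passed for 127 genes (0.922%), 63 upward and 64 downward, and all 127 were also called at 100 nM. Their median absolute log2 fold change was 0.11 at 10 nM and 0.92 at 100 nM. In 62 of the 127, both 21h10 libraries at 100 nM were above the 6 other treated libraries, and in 64 they were below them. The 127 were selected on these libraries, so their sizes and order are no separate evidence. The largest upward changes were in Fam19a3 (2.74, adjusted p = 1.61e-05), Il24 (2.72, 0.00463), Epas1 (2.58, 3.67e-07), Tspan9 (2.48, 0.000374) and Plxdc2 (2.34, 0.00674). The largest downward changes were in Crhbp (-2.41, 0.0106), Il18 (-1.77, 0.000179), Miat (-1.57, 0.00393), Matn2 (-1.53, 0.00126) and Bco2 (-1.51, 0.0305).

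Single genes show how the doses differed. Epas1 had 12.9 and 15.5 CPM with mIL-21 and 18.9 and 19.8 CPM with 21h10 at 10 nM, then 12.8 and 14.1 CPM with mIL-21 and 105 and 113 CPM with 21h10 at 100 nM. The 21h10 libraries at the higher dose stood apart from all others. S1pr1 had 339 and 339.5 CPM with mIL-21 and 327 and 329.7 CPM with 21h10 at 10 nM, and 169 and 168 CPM with 21h10 at 100 nM (change -0.95, adjusted p = 0.000146). Btla had 154 and 144 CPM with mIL-21 and 142.997 and 147 CPM with 21h10 at 10 nM (change -1.09, adjusted p = 0.000628). For the granzymes the change was smaller, 0.58 for Gzma (adjusted p = 0.0494) and 0.30 for Gzmb (adjusted p = 0.36).

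Over the whole profile, the root mean square log2 difference between 21h10 and mIL-21 at 100 nM was 0.496, where the spread of duplicates alone would give 0.341. At 10 nM it was 0.376 beside 0.306. Between 10 and 100 nM, mIL-21 profiles differed by 0.287, under the 0.302 that duplicates alone would give, and 21h10 profiles by 0.439 beside 0.344. These values carry no test.

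**Figure D5:**
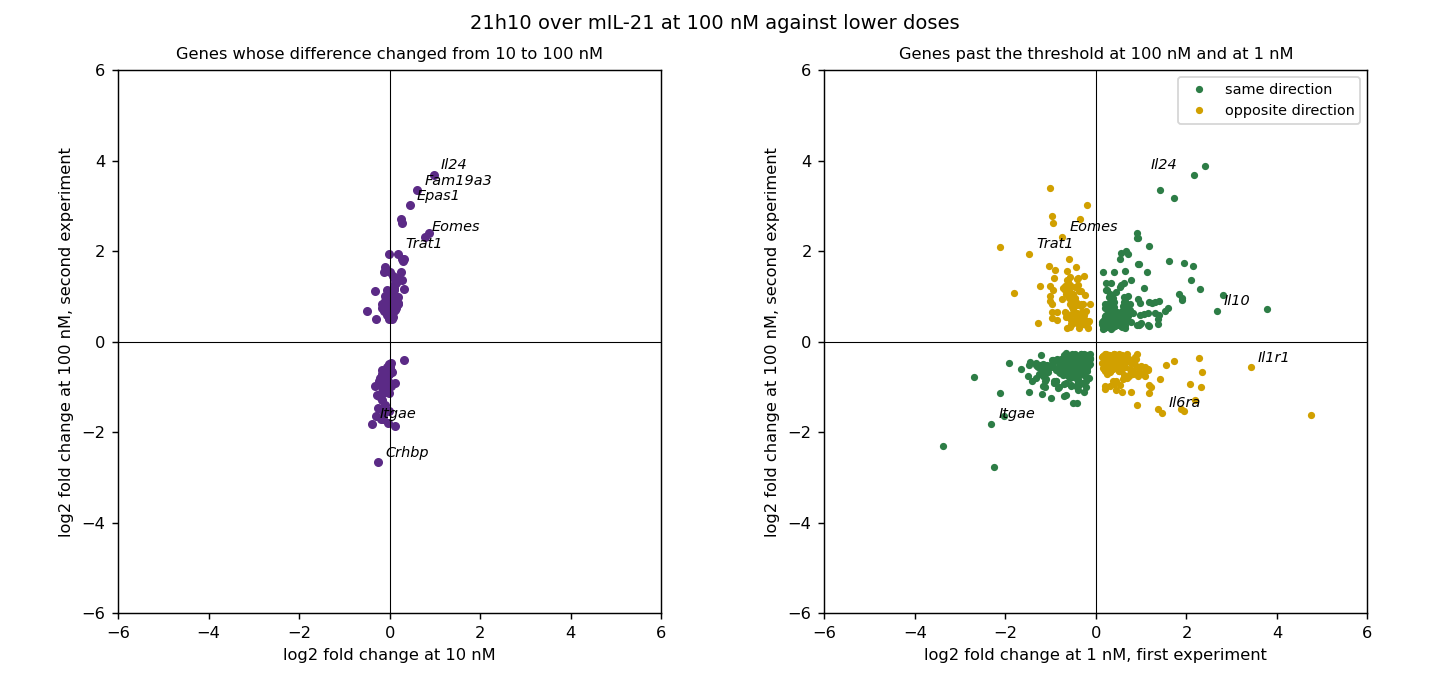
Log2 fold change of 21h10 over mIL-21 at 100 nM (y axes) against that at 10 nM for the 127 genes whose difference changed between these doses (left), and against that at 1 nM in the first experiment for the 681 genes past the threshold at both doses (right). The left points hug the vertical line at 0 (median absolute value 0.11 at 10 nM), which their selection by the change between doses favours. Of the right points, 247, drawn in yellow, lie in quadrants of opposite direction.

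The first experiment gave the same cytokines at 1 nM, in other libraries with their own unstimulated cells. There 5271 of 13974 genes (37.7%) differed, 2735 higher and 2536 lower with 21h10, at a coefficient of variation between duplicates of 4.32%, compared with 8.8% in the second experiment. Dose and experiment changed together and cannot be told apart. Of the 1174 genes called at 100 nM, 1161 were tested at 1 nM and 681 were called there too (58.0% of the 100 nM calls and 12.9% of the 1 nM calls), beside 38.8% of all genes tested in both. Of the 681, 173 were higher at both, 261 lower at both, 100 higher at 100 nM and lower at 1 nM, and 147 lower at 100 nM and higher at 1 nM. Across the 13248 genes tested in both, which are not independent replicates, Pearson's r of the log2 fold changes was 0.04 and Spearman's rho 0.07.

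Genes of like direction at both doses included Il24 (2.17 at 1 nM, adjusted p = 5.15e-11), Il10 (2.67, 3.66e-13), Entpd1 (1.59, 5.13e-13), Tnfrsf8 (1.30, 1.08e-11) and Il2ra (0.81, 2.55e-10), all higher with 21h10. Itgae (-2.32, 5.75e-13), Cd160 (-2.69, 1.41e-13) and Cxcr3 (-1.32, 8.06e-10) were lower at both. The direction turned for Eomes (-0.75, 2.04e-08) and Trat1 (-1.47, 1.11e-08), higher at 100 nM and lower at 1 nM. Among the other largest risers it turned likewise for Epas1 (-0.20, 0.0435), Tspan9 (-0.36, 3.43e-05), Plxdc2 (-0.94, 2.91e-05) and H2-DMb2 (-1.02, 0.000484). Fam19a3 (1.42, 6.15e-07), Zak (0.90, 1.68e-06), Hist1h2ap (0.92, 0.0144) and Hist1h2ao (0.90, 0.0146) were higher at both doses, like Il24. The direction turned the other way for Il6ra (1.45, 1.7e-07), Stom (1.87, 1.59e-12), Ifitm1 (1.37, 2.75e-11) and Il1r1 (3.42, 2.87e-12), lower with 21h10 at 100 nM and higher with it at 1 nM. Socs3, which did not pass at 100 nM, was higher with 21h10 at 1 nM (1.09, 1.34e-10), as was Tbx21 (0.41, 2.51e-05).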

How the data were processed

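RNA of 20 libraries was sequenced by the authors and mapped to mm10 (GRCm38). The submitters' notes name TopHat2 2.0.11, Bowtie2 2.2.6, SAMtools 0.1.8, bedtools 2.25.0 and edgeR. The deposited counts are raw whole numbers of reads per RefSeq transcript, and the authors derived the deposited RPKM from these reads, each length and the mapped total. The counting tool, the use of strand and the annotation version are not given in the sources used here, so overlapping genes on either strand and near-identical copies (at least 95% over 200 bases) are uncertain.

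Of 31682 transcripts, the longest stood for each of 23992 symbols. The 10 libraries of the second experiment were fitted together with edgeR 4.0.16 (R 4.3.3): filterByExpr (minimum count 10, minimum total 15), TMM scaling, glmQLFit and glmQLFTest with group as the factor and Benjamini-Hochberg adjustment, threshold 0.05. Between 27074399 and 43303144 gene reads per library leave the spread between duplicates (coefficient of variation 8.8%) as the main error. An exact permutation test of duplicates against duplicates gives a two-sided p of 0.333 at the least, so significance rests on the spread shared across genes. Confidence intervals are 95% and come from the same fit. The first experiment was fitted alike. Scripts were tested on simulated data.

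Genes were named by rule at 100 nM: the 10 largest rises and 10 largest falls among called genes whose groups did not overlap and with at least 1 RPKM in the higher group, the 5 largest rises and falls in CPM, members of fixed lists that passed (others with their values), and the 5 largest changes each way between 10 and 100 nM. The comparison, the lists and the rules were chosen with earlier results of these data known. Alternatives used DESeq2 1.42.0, limma 3.58.1 on log2(RPKM + 1), no filter, library sizes from mapped reads, the most-read transcript, fewer libraries and a duplicate block; removal of a length trend and an RPKM minimum of 1 were chosen after seeing the data. Coordinates are from RefSeq (GRCm38.p6), and exon overlaps from GENCODE (GRCm38) with BLAST 2.17.0 for copies. Duplicate numbers were not treated as pairs in the main fit. Some single genes of the lists are not reported here by name.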

Additional observations from a re-analysis of the deposited data

Results flagged for a closer look

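The cytokine difference was not the same at 10 and 100 nM for 127 genes, by an edgeR test of the change itself across all tested genes with Benjamini-Hochberg adjustment. Values below are the log2 fold change of 21h10 over mIL-21 at 100 nM minus that at 10 nM. Genes with an upward change were Fam19a3 (2.74), Il24 (2.72), Epas1 (2.58), Tspan9 (2.48), Plxdc2 (2.34), Trat1 (1.74), Eomes (1.55), Zak (1.52), H2-DMa (1.44), Tnfrsf4 (1.28), Ccr4 (1.10), Cish (0.92), Il10 (0.82), Tnfrsf8 (0.77), Il4ra (0.77), Lilrb4 (0.68), Gzma (0.58), Bcl2 (0.58) and Cst7 (0.48). Some of these genes leaned in the same direction at 10 nM. Log2 fold changes there were 0.97 for Il24, 0.86 for Zak, 0.77 for Eomes and 0.61 for Fam19a3, of which only that of Eomes passed the threshold.

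Downward changes were found in Crhbp (-2.41), Il18 (-1.77), Miat (-1.57), Matn2 (-1.53), Bco2 (-1.51), Il6ra (-1.44), Itgae (-1.42), Stom (-1.38), Itgax (-1.33), Ifitm1 (-1.29), Btla (-1.09), Itgam (-1.04), S1pr1 (-0.95), Itga4 (-0.82), Nt5e (-0.73), Iigp1 (-0.73), Klrd1 (-0.69), Pmaip1 (-0.67), Cd7 (-0.63), Cxcr3 (-0.59) and Il18r1 (-0.53). Integrin chains (Itgae, Itgax, Itgam and Itga4) recur among them. Between the experiments, 247 genes called at both 1 and 100 nM had opposite directions, and for these the difference between the doses was not tested.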

How the results depend on the processing

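No call at 100 nM turned direction under any alternative run. At 100 nM the 1174 calls became 1961 without the unstimulated libraries, 2026 with the 2 compared groups alone, 243 when a size limit of 1 on the log2 scale was added, and between 373 and 637 when a library was left out. The other settings gave between 848 (limma) and 1721 (no filter on low counts), with 1440 by DESeq2. The 127 genes whose difference changed between 10 and 100 nM became 257 with no filter, 265 without unstimulated libraries, 218 by DESeq2, 63 by limma, 52 with the size limit and between 45 and 94 with a library left out. The single call at 10 nM became 179 with no filter, 8 without unstimulated libraries, 1.4e+02 (rounded) with the compared groups alone, 13 by DESeq2, 0 by limma, 0 with the size limit and between 0 and 5 with a library left out. At 1 nM the size limit left 622 of 5271 calls, and leaving out a library gave between 3994 and 5710. The profile difference of 0.496 was 1.17 over the 1000 most variable genes and between 0.523 and 0.692 with a library left out. The cause of these shifts was not tested.

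With the duplicate number as a block, 1345 genes were called at 100 nM, 4 at 10 nM and 5024 at 1 nM. Same-numbered libraries correlated between -0.167 and 0.227 in their deviations over 10 pairs of groups, 3 of them over 0.1. Those 3 were unstimulated with mIL-21 at 100 nM (0.227), unstimulated with 21h10 at 100 nM (0.172) and the 2 cytokines at 100 nM (0.126). These values cannot exclude a pairing by number. Of the 161 named genes, 63 were called under every alternative that tested them, other than the size limit. Some genes of low level were not tested by limma or under the RPKM minimum. limma called 111, and mapped-read library sizes lost 28. Genes that rest on few reads, such as H2-DMb2 and Fxyd4, are the most uncertain.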
